A study of Danio rerio with 4 samples.

Results

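The cells described here are the cardiomyocytes of zebrafish homozygous for a mutation in the receptor gene pdgfrb and of wildtype fish of the same age, as they appear in single-cell RNA libraries of the heart ventricle. A barcode was counted as a cardiomyocyte if it held at least 200 detected genes, at most 25% mitochondrial UMIs (unique molecular identifiers, each standing for 1 captured transcript) and at least 3% of its UMIs from myl7, the heart's myosin light chain 7. By this rule 891 of 1119 kept mutant barcodes (79.6%, 95% Clopper-Pearson interval 77.1 to 81.9) and 672 of 949 kept wildtype barcodes (70.8%, 67.8 to 73.7) were cardiomyocytes, 1563 cells among the 5470 kept in the 4 libraries of the study. The mutant fish were of strain AB, 6 months old, were pdgfrb-/- through the um148 allele, and carried 3 reporters (fli1a:DsRed, cxcl12b:Citrine, pdgfrb:EGFP). The wildtype fish were also of strain AB, 6 months old and carried the same 3 reporters. The cells were thus chosen by gene number, mitochondrial share and myl7 share, and these values are no finding. The remaining libraries came from AB fish of 18 months with pdgfrb:EGFP and cxcl12b:Citrine, either injured, with the ventricle's apex cut off 7 days before, or uninjured, and gave 622 and 1049 cardiomyocytes. Ventricles had been digested with collagenase and elastase, sorted for EGFP+ cells and run on the 10x Genomics 3' kit v3.1. Each group has 1 library, the number of fish behind each is not given in the sources used here, and so no difference below has a replicate check or a test between fish. Every interval covers counting error alone.

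Pdgfrb is the receptor tyrosine kinase for platelet-derived growth factors of the B type and is known from mural cells, the pericytes and smooth muscle cells that wrap coronary vessels, and from epicardium-derived cells. Zebrafish and mice without it are known for vessels with few mural cells. Cardiomyocytes are not known as a main site of the receptor, but they depend on those vessels for oxygen and fuel. Adult heart muscle draws most of its energy from fatty acids oxidised in mitochondria, keeps glycolysis as a second source, stores oxygen on myoglobin and buffers ATP with creatine phosphate.

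Other markers of heart muscle were abundant in these cells. Of 18 genes listed as cardiomyocyte markers 16 were found. The 15 besides myl7, which the rule used, summed to 165224 CPM (UMIs scaled to one common total per library) in the mutant cells and 173499 CPM in the wildtype cells, against 7794 and 8788 CPM in the other kept barcodes of the mutant and wildtype libraries. Since cells were picked through myl7, these values describe the cells and test nothing. Few of the cells held the transcript they had been sorted for. EGFP gave 22 UMIs in 18 of 891 mutant cardiomyocytes and 33 UMIs in 8 of 672 wildtype cardiomyocytes, against 233 and 1002 UMIs in the 228 mutant and 277 wildtype kept barcodes with less myl7. The targeted gene pdgfrb gave 0 UMIs in 891 mutant cardiomyocytes, which allows a share of up to 0.337% of cells with a UMI, and 3 UMIs in wildtype cardiomyocytes, while the other kept barcodes held 7 in mutant and 112 in wildtype. The receptor transcript was therefore at or under the floor of 3 UMIs in the cardiomyocytes of both libraries.

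Depth was similar in both libraries, and mitochondrial transcripts took a larger share in the mutant. The mutant cells held a median of 2212 UMIs and 513 genes, and the wildtype cells 1991 UMIs and 481 genes, with 2208870 and 1538462 UMIs in all. Mitochondrial transcripts made up a median of 0.840% of UMIs in mutant and 0.572% in wildtype cells, and 89 mutant and 61 wildtype cells were above 10%. The myl7 share, which the rule used, had a median of 9.19% in mutant and 9.01% in wildtype cells. Few barcodes lay at the threshold, with 17 mutant and 6 wildtype cells at 3 to 4% and 16 mutant and 13 wildtype barcodes at 2 to 3%. The barcodes nearest to it lay at 3.01% inside and 2.97% outside in mutant, and at 3.20% and 2.98% in wildtype. The mutant and wildtype libraries shared 0 cell barcodes. Transcripts of other cell types were scarce. Haemoglobin genes gave 23.1 CPM in mutant and 20.8 CPM in wildtype cardiomyocytes, the 13 fibroblast markers 81.9 and 134.6 CPM, the 14 mural markers 45.7 and 106.0 CPM, the 10 epicardial markers 91.9 and 65.0 CPM and the 14 endothelial markers 9.51 and 5.85 CPM. The 17 leukocyte markers found gave 2 UMIs in mutant and 0 in wildtype cells, and the 5 thrombocyte markers 5 and 4. Each of the fibroblast, mural and epicardial lists rested largely on 1 gene, sparc (-0.67 on the log2 scale of mutant over wildtype), rgs5b (-1.06) and podxl (1.096), and 2, 8 and 6 of their members were at 0 in mutant and 1, 4 and 5 in wildtype cells. Leaving out barcodes with 3 or more UMIs of another cell type's markers was run as an alternative, and some calls below changed with it. The part of such transcripts in the cells that remained was not tested.

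In the 1623 genes that reached 100 UMIs when the mutant and wildtype cells were added up, the log2 ratio of mutant over wildtype level had a median of 0.00 and ran from -0.80 to 0.85 between the 5th and 95th percentiles. Of these genes, 329 (20.3%) differed by more than 1.5-fold, the size used below to call a gene higher or lower. There were 170 higher in mutant cells (10.5%) and 159 lower (9.80%), 47 and 52 of them by more than 2-fold. The shares of 10.5% and 9.80% are the background for each list below. For 103 genes the 95% counting interval of the ratio lay beyond 1.5-fold as a whole. By the same measure 363 of 2002 genes (18.1%) differed between the cardiomyocytes of the injured and the uninjured 18-month hearts. Those held 2371024 and 3653073 UMIs, so more genes reached the minimum and the shares are not strictly alike. Against the uninjured library, 36.2% of 2023 genes differed for mutant and 36.8% of 1849 for wildtype cells, where age and reporters differ too. A gene with few UMIs could pass the minimum of 100 UMIs through the library where it was higher. Among such genes, described below, were mt2 (100 UMIs in mutant, 5 in wildtype), rsrp1 (92 and 11), xirp2a (28 and 73) and pdgfrl (32 and 73). So were si:dkey-188i13.10 (113 and 7) and si:ch211-28p3.4 (109 and 20). Calls of genes near the minimum therefore depend in part on it.

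**Figure D1:**
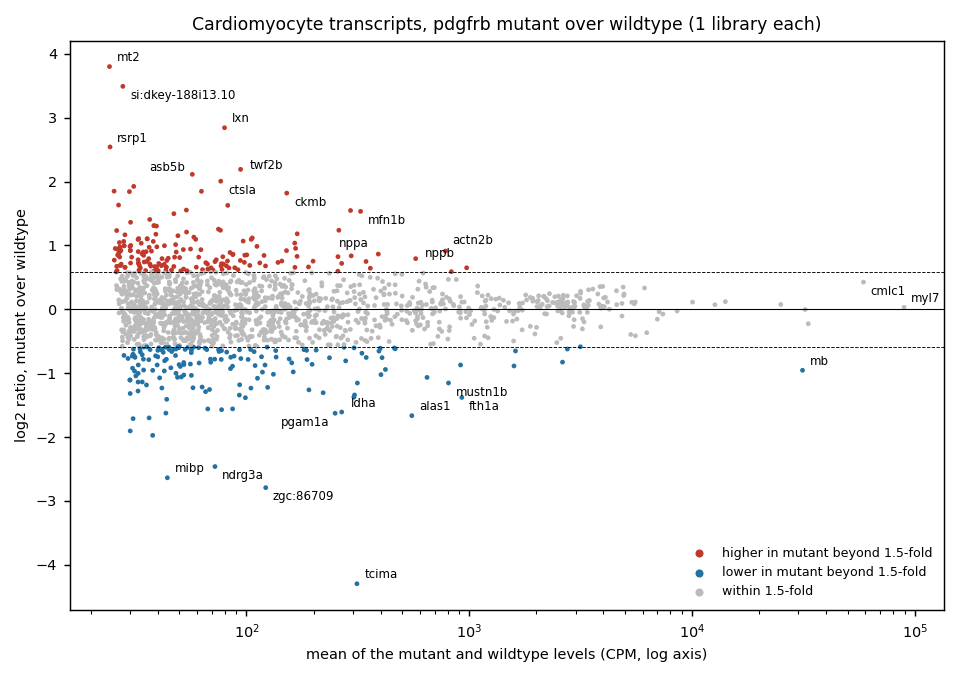
Each point is 1 of the 1623 measured genes, placed by its mean level in mutant and wildtype cardiomyocytes (CPM, log axis) and by its log2 ratio of mutant over wildtype; dashed lines mark 1.5-fold. The most abundant genes lie near 0 except mb at -0.95, and tcima lies lowest at -4.30.

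Most of the muscle's abundant transcripts differed little. Of the 10 genes with most UMIs in mutant cells, myl7 was held by the rule and is left aside. On the log2 scale slc25a5 (the ADP/ATP exchanger of the inner mitochondrial membrane) differed by 0.00, gapdh by 0.08, tnnt2a (cardiac troponin T) by 0.12, tpm4a (a tropomyosin) by 0.07, actc1a (cardiac actin) by -0.23 and cmlc1 (an essential myosin light chain) by 0.43. The other genes of the 10 were si:dkey-151g10.6 (0.11), atp5mc3b (an ATP synthase subunit, -0.03) and mb, the gene of myoglobin, the oxygen-binding haem protein of muscle, and of these mb was the one beyond 1.5-fold.

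Myoglobin mRNA was lower through most of the mutant cells. It stood at 21339 CPM in mutant and 41363 CPM in wildtype cardiomyocytes, a log2 ratio of -0.95 (95% counting interval -0.97 to -0.94), against 37164 CPM in injured and 26993 CPM in uninjured hearts. In single cells it took a median of 1.93% of UMIs in mutant and 3.86% in wildtype cardiomyocytes, and 94.8% of the mutant cells lay below the wildtype median. The gap was present at both depths: medians were 1.78% in mutant and 3.47% in wildtype cells with under 2000 UMIs, and 2.02% and 4.19% in deeper cells. The mutant value was the lowest of the 4 libraries and the wildtype value the highest, and uninjured 18-month hearts lay nearer to the mutant.

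**Figure D2:**
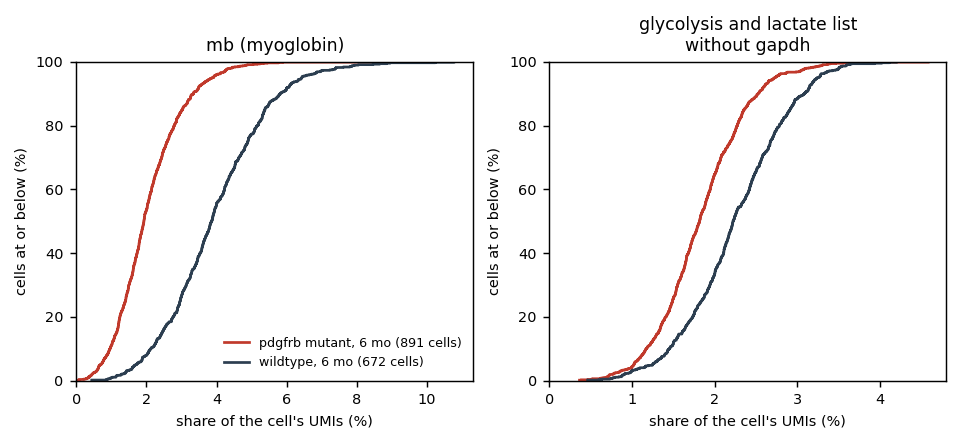
Cumulative share of cells (vertical axis, %) by the share of a cell's UMIs (horizontal axis, %) from mb and from the glycolysis and lactate list without gapdh, for 891 mutant and 672 wildtype cardiomyocytes. The mutant curves lie to the left, with medians of 1.93% in mutant and 3.86% in wildtype for mb, and of 1.82% and 2.22% for the list.

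Some genes of haem and iron handling were lower too. alas1, the first enzyme of haem synthesis (ENSDARG00000021059), stood at 264.8 CPM in mutant and 839.8 CPM in wildtype cells, a log2 ratio of -1.66 (-1.81 to -1.52). It was found in 35.4% of mutant and 67.9% of wildtype cardiomyocytes, and in 12.3% and 8.30% of the other kept barcodes. With each cell thinned to 500 UMIs the shares were 11.4% of mutant and 30.8% of wildtype cardiomyocytes, and 3.07% and 4.69% of the other barcodes. The median depth was 2212 UMIs in mutant and 1991 in wildtype cardiomyocytes, and 1877.5 and 1197 UMIs in the other barcodes. fth1a, the heavy chain of the iron store ferritin, stood at 514.3 CPM in mutant and 1338 CPM in wildtype cells (-1.38, -1.49 to -1.27). In the 18-month hearts alas1 had 811.0 CPM after injury and 278.9 CPM without, and fth1a 1542 and 1114 CPM, so that for alas1 the mutant lay beside the uninjured heart and for fth1a it lay below the other 3 libraries. glrx5, a glutaredoxin of iron-sulphur cluster assembly, was also lower (109.1 CPM in mutant, 215.2 CPM in wildtype, -0.98), whereas a second ferritin gene, fthl27, was higher (438.7 and 280.8 CPM, 0.64). In a list of iron and haem genes put together after these values were seen, 1 of 13 measured members was higher and 4 were lower, mb among them, with a median of -0.02, beside 10.5% higher and 9.80% lower among all measured genes.

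Creatine kinases did not share one direction. ckmb, a muscle creatine kinase (ENSDARG00000040565), had 236.3 CPM in mutant and 67.0 CPM in wildtype cardiomyocytes, a log2 ratio of 1.82 (1.51 to 2.14), and 13.9 CPM in injured and 33.9 CPM in uninjured hearts. No UMI of it was seen in the 228 mutant and 277 wildtype kept barcodes with less myl7, which allows shares of up to 1.32% and 1.08% of them with a UMI. Its far more abundant paralog ckma stood at 5475 CPM in mutant and 7056 CPM in wildtype cells (-0.37), within 1.5-fold. Of the mitochondrial kinases, ckmt2a was lower (-0.76) and ckmt2b was at 0.47. gamt, which makes creatine, was higher, with 1189 CPM in mutant and 757.9 CPM in wildtype cells (0.65). Over the 8 measured genes for creatine and oxygen buffering, 2 were higher and 2 lower (background 10.5% and 9.80%), median -0.05.

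Many glycolytic transcripts were lower. Of 22 measured genes of glucose breakdown, lactate and glycogen, 0 were higher and 9 were lower, beside 10.5% higher and 9.80% lower among all measured genes, and the median of the list was -0.53 where that of all genes was 0.00. ldha, the lactate dehydrogenase subunit that favours making lactate, stood at 132.2 CPM in mutant and 403.0 CPM in wildtype cells (-1.61, -1.81 to -1.41), against 317.6 CPM in injured and 210.2 CPM in uninjured hearts. pgam1a, a phosphoglycerate mutase, stood at 122.2 CPM in mutant and 377.6 CPM in wildtype cells (-1.63, -1.84 to -1.42), against 293.1 and 215.4 CPM. For both genes the mutant was the lowest and the wildtype the highest of the 4 libraries. The other members called lower were aldocb (-1.38), gapdhs (-1.23), hk1 (-1.11), gys1 (-0.89), gpia (-0.86), pfkmb (-0.78) and pkma (-0.59), which stand for aldolase, glyceraldehyde phosphate dehydrogenase, hexokinase, glycogen synthase, phosphoglucose isomerase, phosphofructokinase and pyruvate kinase.

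The glycolytic genes with most transcripts differed less. gapdh, at 25708 CPM in mutant and 24387 CPM in wildtype cells, was at 0.08. eno3, the muscle enolase, was at 0.09 with 5668 and 5340 CPM. aldoaa, the main aldolase here, was at -0.41 with 4779 CPM in mutant and 6371 CPM in wildtype cells. The lactate dehydrogenase subunit ldhba, which is known for turning lactate back to pyruvate in heart, had 1466 CPM in mutant and 1666 CPM in wildtype cells (-0.18). For aldolase, glyceraldehyde phosphate dehydrogenase, phosphoglycerate mutase and lactate dehydrogenase, a less abundant isozyme was called lower while the most abundant one was within 1.5-fold. For phosphoglucose isomerase and pyruvate kinase it was the more abundant isozyme, gpia and pkma, that was called lower, and for enolase neither was called. Summed over the list, transcripts came to 44402 CPM in mutant and 47551 CPM in wildtype cells. In injured and uninjured hearts they came to 41302 and 52104 CPM, so by this sum both 6-month libraries lay between the 18-month ones. In single cells the whole list took a median of 4.41% of UMIs in mutant and 4.77% in wildtype, and 64.9% of mutant cells lay below the wildtype median. Leaving out gapdh, the list took a median of 1.82% of a cell's UMIs in mutant and 2.22% in wildtype, and 76.8% of mutant cells lay below the wildtype median. Of the 9 genes called lower, the mutant was the lowest of the 4 libraries for 8 and the wildtype the highest for 6. The call itself favours such counts. With cells thinned to 500 UMIs, 5 of the 9 were still lower by more than 1.5-fold.

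**Figure D3:**
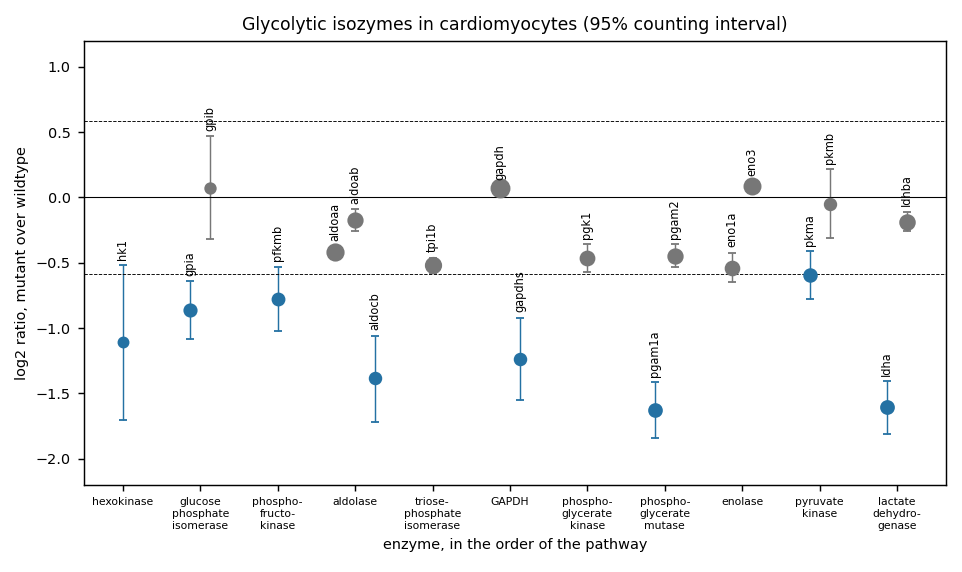
Log2 ratio of mutant over wildtype with its 95% counting interval for each measured isozyme, in the order of the pathway; larger points have higher wildtype CPM and blue ones are lower beyond 1.5-fold (dashed). The isozymes pgam1a (-1.63) and ldha (-1.61) lie lowest, while gapdh (0.08) and eno3 (0.09) lie near 0.

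Targets of HIF, the transcription factor that is stabilised in low oxygen, were few among the measured genes. Of 8 measured genes of the hypoxia list, 0 were higher and 3 were lower: ldha, vegfab (-1.11), 1 of the 2 zebrafish vascular endothelial growth factor A genes, and higd1a (-0.76), a mitochondrial protein known to be induced by low oxygen in mammals. Among all measured genes 10.5% were higher and 9.80% lower. With a minimum of 20 UMIs 3 of 13 hypoxia genes were higher and 5 lower, median -0.42. All genes at that minimum gave 838 higher and 552 lower of 4212. With no minimum 7 of 28 hypoxia genes were higher and 13 lower, median -0.44. All genes then gave 4001 higher and 2644 lower of 11689. With no minimum the hypoxia share higher was thus under that of all genes, and the share lower was above it. ldha also counts in the glycolysis list, and vegfab in the angiogenic list below. vegfab stood at 19.01 CPM in mutant and 41.0 CPM in wildtype cells, with 42 and 63 UMIs behind these values. Its paralog vegfaa, under the count minimum with 31 and 13 UMIs, was at 0.73 with an interval from -0.24 to 1.79. hif1ab, a HIF alpha subunit, was at 0.08 with 43.9 CPM in mutant and 41.6 CPM in wildtype cells. Of the 3 measured genes among angiogenic and PDGF signals, vegfab and pdgfrl (a receptor-like gene) were lower and apln was at -0.11. pdgfrl had 14.5 CPM in mutant and 47.5 CPM in wildtype cells (-1.71), with 32 and 73 UMIs. vegfab and pdgfrl were near the count minimum and passed it in part through their wildtype values. Their calls, and that of vegfab in the hypoxia list, therefore depend in part on the minimum. vegfaa and hif1ab were named after their values were seen.

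Several genes that muscle raises when it is short of fuel were higher. Of 17 measured genes of the fuel switch and starvation list, 6 were higher and 1 was lower, with a median of 0.24, beside 10.5% higher and 9.80% lower among all measured genes. In cells under 2000 UMIs 2 of the 6, trim63a and fbxo32, were still beyond 1.5-fold, and with cells thinned to 500 UMIs 4 of them. trim63a, the muscle ubiquitin ligase MuRF1, stood at 431.4 CPM in mutant and 256.8 CPM in wildtype cells (0.75, 0.58 to 0.92), against 124.0 CPM in injured and 165.1 CPM in uninjured hearts. fbxo32, the ligase atrogin-1, stood at 111.8 CPM in mutant and 61.8 CPM in wildtype cells (0.86, 0.51 to 1.21), against 2.5 and 6.8 CPM, and in the other kept barcodes its ratio was -0.55 (-1.31 to 0.21). The others were trim55b (MuRF2, 0.73), sesn1 (a sestrin, 0.73), foxo3b (a FOXO factor known to drive these ligases in mammals, 0.90) and angptl4 (an inhibitor of lipoprotein lipase, 1.06), and the one lower was cebpb (-1.03). The mutant was the highest of the 4 libraries for the 6 genes called higher, a count that the call itself favours. Members with more UMIs were nearer to 0, pdk2a (a kinase that turns off pyruvate dehydrogenase) at 0.34 and pdk2b at -0.11. In single cells the list took a median of 0.175% of UMIs in mutant and 0.147% in wildtype cardiomyocytes, and 45.6% of mutant cells lay below the wildtype median, so the shift of the list as a whole was small. Summed, the list came to 3472 CPM in mutant and 2995 CPM in wildtype cells, and to 854.1 CPM in injured and 1034 CPM in uninjured hearts, so both 6-month libraries lay above both 18-month ones. g6pcb, a glucose 6-phosphatase, outside the list and chosen after its value was seen, had 80.1 CPM in mutant and 27.3 CPM in wildtype cells (1.55), against 3.0 CPM in injured and 6.8 CPM in uninjured hearts.

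Few genes of fatty acid use differed. Of 21 measured genes, 2 were higher and 0 lower, median -0.14. The 2 were cpt1b, which brings long-chain fatty acids into mitochondria (44.8 CPM in mutant, 24.1 CPM in wildtype, 0.90), and ucp3, an uncoupling protein (34.4 and 18.9 CPM, 0.87). The share called higher was near the background of 10.5%, and the share called lower was under that of 9.80%. Both calls depended on the cells counted: cpt1b was at 0.37 without the mixed barcodes (those with 3 or more UMIs of another cell type's markers) and at 0.47 with at least 5% myl7, and ucp3 was at 0.25 with cells thinned to 500 UMIs. Without the mixed barcodes, at 5% myl7, in cells of 2000 UMIs or more and with thinned cells, 0 members reached both the count minimum and 1.5-fold.

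In the mitochondria themselves, the respiratory chain differed little. Of 84 measured nuclear genes, 0 were higher and 4 lower (background 10.5% and 9.80%), median -0.06. The 4 were cox4i1l, of cytochrome oxidase, with 1115 CPM in mutant and 2062 CPM in wildtype cells (-0.89), atp5mc1 (-0.62), ndufs8a (-0.61) and ndufa4 (-0.59). Of the 84, 59 were below 0. The chain's nuclear genes took a median of 12.6% of a cell's UMIs in mutant and 13.4% in wildtype cardiomyocytes. Below that wildtype median lay 63.9% of mutant cells. Of the 13 genes encoded in mitochondrial DNA, 0 were called in either direction, and their median was 0.10. The proteins of the mitochondrial ribosome, a list added after values were seen, had 0 of 59 higher and 11 lower (18.6%), median -0.28. The background was 10.5% higher and 9.80% lower. mrps21 was the lowest, with 57.0 CPM in mutant and 129.4 CPM in wildtype cells (-1.18). In single cells this list took a median of 0.477% of UMIs in mutant and 0.570% in wildtype cardiomyocytes, and 70.0% of mutant cells lay below the wildtype median. Of the 11, the mutant was the lowest of the 4 libraries for 9 and the wildtype the highest for 9, counts that the call itself favours. Of 23 measured genes for mitochondrial shuttles and dynamics 1 was higher, mfn1b, and 3 were lower, the cytochrome c gene cycsb (-0.65) and the chaperones hspd1 and hspa9, median -0.15. mfn1b, a mitofusin that joins outer mitochondrial membranes, stood apart, with 483.5 CPM in mutant and 167.1 CPM in wildtype cells (1.53, 1.34 to 1.74), against 124.8 CPM in injured and 313.7 CPM in uninjured hearts.

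The natriuretic peptides, which ventricular muscle makes under wall stress, were higher in mutant cells. nppa stood at 504.3 CPM in mutant and 276.9 CPM in wildtype cells (0.87, 0.70 to 1.03), and nppb at 728.9 and 420.6 CPM (0.79, 0.66 to 0.93). nppb came within 1.5-fold with at least 5% myl7 (0.53) and with cells thinned to 500 UMIs (0.46). In the 18-month hearts nppa had 922.0 CPM after injury and 321.9 CPM without, and nppb 1094 and 955.4 CPM, so that nppb in the mutant lay below both. At least 1 of the 2 genes was detected in 462 of 891 mutant cardiomyocytes (51.9%) and in 265 of 672 wildtype cardiomyocytes (39.4%). Both shares lay below those of the 18-month hearts, 75.9% in injured and 69.4% in uninjured. The cells there were deeper, with medians of 3077.5 and 2735 UMIs. With cells thinned to 500 UMIs, nppa was found in 16.0% of mutant and 9.23% of wildtype cardiomyocytes, and in 10.1% and 7.58% of the other kept barcodes. For nppb the thinned shares lay closer, at 13.8% of mutant and 10.7% of wildtype cardiomyocytes, and 7.02% and 5.42% of the other barcodes. Before thinning the nppa shares were 40.7% and 31.1% in mutant and wildtype cardiomyocytes, and 12.3% and 8.30% in the other barcodes. In both libraries the 10 cells richest in nppb held about the same part of its UMIs, 29.9% in mutant and 30.8% in wildtype.

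Other members of the wall stress list did not follow the peptides. Of 11 measured genes of this list, 2 were higher, nppa and nppb, and 3 were lower, median -0.07. The background was 10.5% higher and 9.80% lower. mustn1b, a small nuclear protein of muscle and skeleton, had 500.7 CPM in mutant and 1114 CPM in wildtype cells (-1.15), against 1815 CPM in injured and 1085 CPM in uninjured hearts. csrp3, the muscle LIM protein of the Z-disc, had 646.0 CPM in mutant and 1182 CPM in wildtype cells (-0.87). acta1b, a skeletal actin, was at -0.07. The third gene called lower, tcima, had the largest difference of all those ranked and is described next. It is not named for wall stress, and the lists were chosen with earlier results of these data known.

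tcima, a small gene named for transcriptional and immune response regulation (ENSDARG00000079497), stood at 30.3 CPM (23.5 to 38.5) in mutant and 596.0 CPM (558.1 to 635.9) in wildtype cardiomyocytes, a log2 ratio of -4.30 (-4.68 to -3.94). It stood at 191.9 CPM in injured and 286.3 CPM in uninjured hearts, so the mutant was the lowest and the wildtype the highest. It was found in 30 of 891 mutant cells (3.37%) and 197 of 672 wildtype cells (29.3%), and in 10.96% of the mutant and 15.2% of the wildtype other kept barcodes. Thinned to 500 UMIs, the shares were 0.898% of mutant and 15.3% of wildtype cardiomyocytes, and 5.26% and 9.39% of the other barcodes. In the mutant library the cardiomyocyte share was thus below that of the barcodes around it. Of its 67 mutant UMIs, 70.15% came from 10 cells, and the ratio was -4.92 without the 3 richest cells of each library.

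Genes higher in mutant cells were ranked by the lower end of the counting interval of their ratio. si:dkey-188i13.10 came first, with 51.2 CPM in mutant and 4.5 CPM in wildtype cells (3.49, 2.40 to 4.84), against 182.6 CPM in injured and 59.4 CPM in uninjured hearts. It is the wildtype library that stands apart here, with 7 UMIs where the mutant had 113. si:dkey-188i13.11, the gene with the adjoining name, went the other way, with 40.3 CPM in mutant and 96.2 CPM in wildtype cells (-1.26), and how reads were shared between the 2 was not tested. twf2b, a twinfilin that binds actin monomers (ENSDARG00000009727), stood at 154.4 CPM in mutant and 33.8 CPM in wildtype cells (2.19, 1.77 to 2.64), against 23.6 and 37.0 CPM at 18 months, so that the mutant alone was high. In other kept barcodes it was found in 5.70% of mutant and 1.81% of wildtype ones, where cardiomyocytes had 26.9% and 7.29%. Thinned to 500 UMIs, these shares were 2.19% and 0.361%, and 7.30% and 1.04%.

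lxn, latexin, an inhibitor of carboxypeptidases, had 139.9 CPM in mutant and 19.5 CPM in wildtype cardiomyocytes (2.84, 2.30 to 3.43), against 35.01 CPM in injured and 138.2 CPM in uninjured hearts. It was more frequent in the other barcodes of both libraries, 61.0% in mutant and 32.9% in wildtype, than in the cardiomyocytes, 25.5% and 3.87%. Thinned to 500 UMIs, the shares were 35.5% and 16.2% of the other barcodes, and 6.73% and 1.19% of the cardiomyocytes. Among the other barcodes lxn was higher in the mutant library too (0.74), and the part of free RNA in the cardiomyocyte value was not tested. The other 9 of the 12 genes ranked highest were rsrp1 (2.54, an arginine and serine rich protein), asb5b (2.11, an ankyrin and SOCS box protein of muscle), ctsla (2.01, the lysosomal protease cathepsin L), histh1l (1.85, a linker histone), si:ch211-270g19.5 (1.55), si:ch211-28p3.4 (1.92), si:ch73-288o11.5 (1.63), and mfn1b and ckmb as described. rsrp1 had 41.7 CPM in mutant and 7.2 CPM in wildtype cells but 70.0 and 74.5 CPM at 18 months, where ctsla had 122.7 CPM in mutant and 30.6 CPM in wildtype cells and 6.3 and 12.9 CPM at 18 months. For rsrp1 it was again the wildtype library that was low, and 47.8% of its mutant UMIs came from 10 cells. With at least 1% myl7 its ratio was 1.29. asb5b was at 4.88 with cells thinned to 500 UMIs.

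Of the 12 genes ranked lowest, tcima, alas1, pgam1a, ldha and fth1a have been described. zgc:86709 stood at 30.8 CPM in mutant and 213.2 CPM in wildtype cells (-2.79, -3.19 to -2.41), against 878.1 CPM in injured and 403.2 CPM in uninjured hearts, below the other 3 libraries. ndrg3a, of the NDRG family, stood at 22.2 CPM in mutant and 122.2 CPM in wildtype cells (-2.46), against 91.1 and 33.7 CPM. mibp, named for muscle integrin binding, stood at 12.2 CPM in mutant and 76.0 CPM in wildtype cells (-2.64), against 11.4 and 24.1 CPM, so that wildtype alone was high. The rest were tuba8l (a tubulin, -1.97), xirp2a (an actin-binding protein of cell junctions and Z-discs, -1.90), gnb5b (a G protein beta subunit, -1.57) and chchd7 (a protein of the mitochondrial intermembrane space, -1.56).

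**Figure D4:**
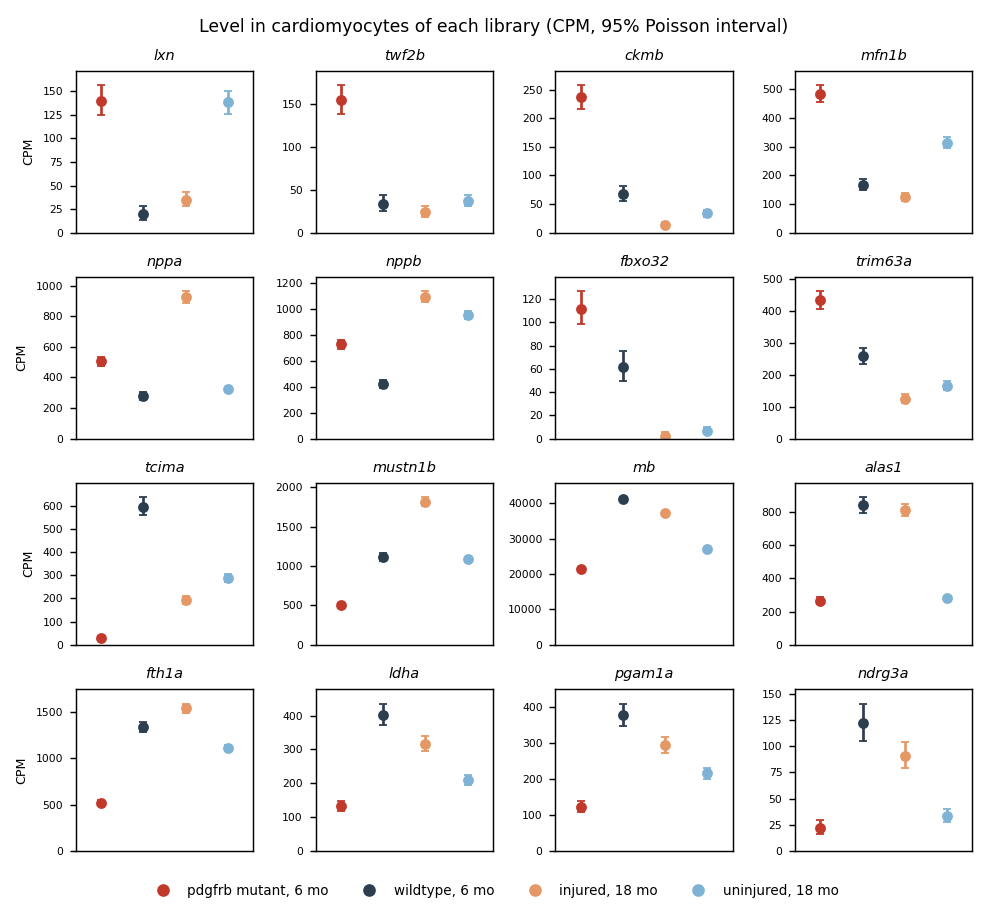
Level (CPM, 95% Poisson interval) of 16 genes in the cardiomyocytes of the mutant, wildtype, injured and uninjured libraries, each panel with its own axis from 0. The mutant alone is high for twf2b and ckmb and lowest for tcima, with 30.3 CPM in mutant and 596.0 CPM in wildtype, and for lxn it lies beside the uninjured heart.

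Abundant filament transcripts were within 1.5-fold, and some with fewer UMIs were not. In the thin filament 0 of 10 measured genes were called. In the thick filament and titin list 3 of 12 were higher and 1 was lower (background 10.5% and 9.80%), median 0.12. The higher ones were myh7ba (69.7 CPM in mutant, 24.7 CPM in wildtype, 1.497) and myh7bb (45.3 and 22.1 CPM, 1.03), both myosin 7B heavy chains, and myom2a, a myomesin of the M-band (0.71). Without the mixed barcodes 1 of 11 measured members was higher and 2 were lower, median -0.08, with myh7bb at 0.29 and myom2a at 0.57. smyd1b, a methyltransferase that zebrafish muscle needs to assemble myosin, was lower, with 195.1 CPM in mutant and 434.2 CPM in wildtype cells (-1.15), against 62.4 CPM in injured and 52.3 CPM in uninjured hearts. The abundant chain cmlc1, at 67478 CPM in mutant and 50218 CPM in wildtype cells, was at 0.43, and myh7l was at -0.05.

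At the Z-disc 3 of 18 measured genes were higher and 4 lower (background 10.5% and 9.80%), median -0.08. actn2b, an alpha-actinin that anchors thin filaments, stood at 1021 CPM in mutant and 542.8 CPM in wildtype cells (0.91, 0.80 to 1.03), against 426.0 CPM in injured and 202.3 CPM in uninjured hearts. synpo2lb (0.75) and the co-chaperone bag3 (0.87, but 0.35 without the mixed barcodes) were also higher. tcap, telethonin, which caps titin, stood at 172.9 CPM in mutant and 438.1 CPM in wildtype cells (-1.34, -1.53 to -1.16), and xirp2a (-1.90), csrp3 (-0.87) and the small heat shock protein hspb11 (-0.83) were lower too. Among 14 measured genes of calcium handling 1 was higher, hrc, a calcium-binding protein of the sarcoplasmic reticulum (48.9 CPM in mutant, 22.8 CPM in wildtype), and 2 were lower, smtnl1, a smoothelin-like protein (-1.02), and casq1b, a calsequestrin (-0.63), median 0.00. Of 5 measured genes of ion channels and junctions 1 was higher, atp1b1b, a sodium pump subunit (0.62), and 0 were lower.

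Of 7 measured transcription factors of the heart, 3 were higher and 0 lower, median 0.42, beside 10.5% higher and 9.80% lower among all measured genes. With a minimum of 20 UMIs 7 of 17 were higher and 1 was lower, where all genes gave 838 higher and 552 lower of 4212. With no minimum 8 of 27 were higher and 6 lower, median 0.06. All genes then gave 4001 higher and 2644 lower of 11689. With no minimum the excess of higher factors was thus gone, and both shares of the list were under those of all genes. hand2, a factor needed for the ventricle, stood at 67.9 CPM in mutant and 30.6 CPM in wildtype cells (1.15, 0.67 to 1.66), hopx, a homeodomain-only protein, at 221.4 and 107.9 CPM (1.04), and irx1a, an Iroquois factor, at 34.0 and 17.6 CPM (0.95, 0.30 to 1.64). nkx2.5 (0.07) and tbx5a (0.13) were within 1.5-fold. In the 18-month hearts hand2 had 116.8 CPM after injury and 56.4 CPM without. With 32 of the 39 genes found in this list under the count minimum, the 7 are those with at least 100 UMIs over both libraries together. irx1a, with 75 UMIs in mutant and 27 in wildtype cells, passed it through its mutant value.

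**Figure D5:**
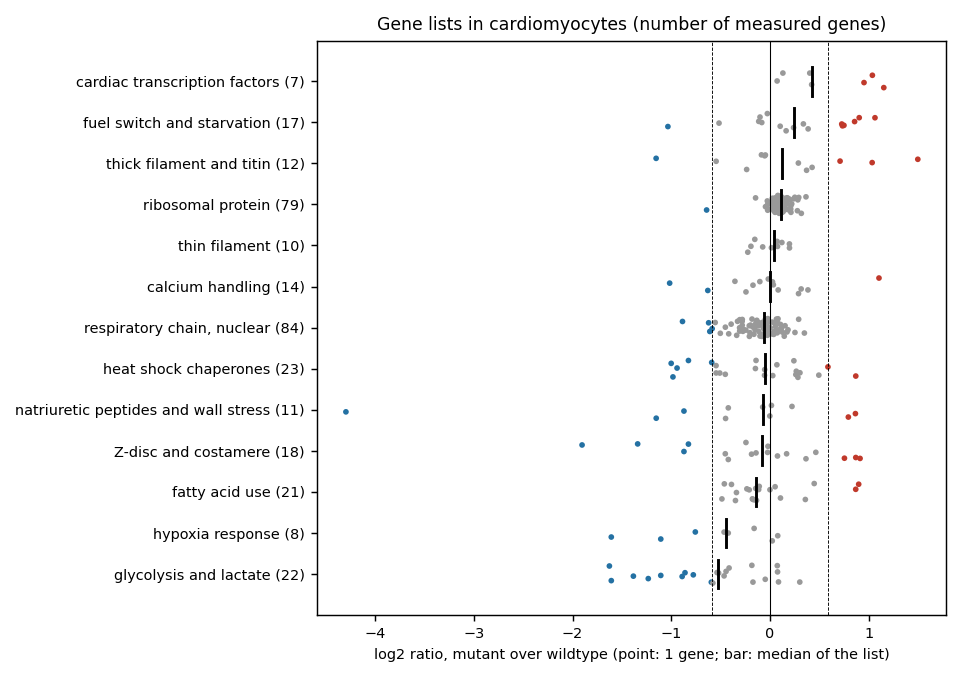
Log2 ratio of mutant over wildtype for every measured gene of 13 lists (number measured in brackets), with a bar at each list's median; red and blue points are higher and lower beyond 1.5-fold (dashed), and genes under 100 UMIs are not shown. The medians run from 0.42 for cardiac transcription factors to -0.53 for glycolysis and lactate.

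Stress genes were called in both directions, beside a background of 10.5% higher and 9.80% lower. Of 23 measured genes of the heat shock list 2 were higher and 5 lower, median -0.06. The lower ones were hspd1 (32.1 CPM in mutant, 64.3 CPM in wildtype), hsp90aa1.1 (-0.98), hspb6 (-0.94), hspb11 and hspa9 (-0.59). The higher ones were bag3 and the transcription factor hsf2 (0.59), and with TMM scaling 1 was higher. Without the mixed barcodes 0 of 21 measured genes of the list were higher and 6 lower, median -0.48. With at least 5% myl7 0 of 21 were higher and 7 lower, median -0.38. Over the same 23 genes the median without the mixed barcodes was -0.17. Of 22 immediate early genes 1 was higher, fosb (0.78), and 4 lower, atf3 (-1.08), jund (-0.95), dusp6 (-0.77) and nr4a3 (-0.73), median 0.00. Without the mixed barcodes 1 of 20 was higher and 3 lower, median -0.22, with fosb at 0.28, and with cells thinned to 500 UMIs none of the 5 was beyond 1.5-fold. These genes are known to respond to tissue dissociation as well. Of 8 measured genes of the integrated stress response 2 were higher, nupr1a, a small stress-induced nuclear protein (364.9 CPM in mutant, 154.7 CPM in wildtype, 1.24), and ddit3, the factor CHOP (0.82), and 1 was lower, cebpb. Of 18 genes for oxidative stress and metals 3 were higher and 2 lower, median -0.07. mt2, a metallothionein, chosen after its value was seen, gave 100 UMIs in 44 of 891 mutant cells and 5 in 3 of 672 wildtype cells (45.3 and 3.2 CPM, 3.80), and 54.0% of the mutant UMIs came from 10 cells. It had 3.0 CPM in injured and 33.4 CPM in uninjured hearts.

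The remaining lists gave small counts of called genes, beside a background of 10.5% higher and 9.80% lower. Of 4 measured genes of the circadian clock, 2 were lower, nr1d2a (-0.96) and nfil3-6 (-0.86), and 0 higher. Of 21 proteasome and ubiquitin genes 1 was higher, map1lc3b (0.94), an autophagosome protein, and 1 lower. Of 5 cell cycle genes 0 were called, and of 5 interferon and class I genes 1 was higher, b2ml (0.66). Of 79 ribosomal protein genes 0 were higher and 1 was lower, rpl26 (-0.64), median 0.11, both shares far under the background. Of the 79, 72 were above 0. Over all genes the share beyond 1.5-fold was 20.3% with the minimum of 100 UMIs and 33.0% with a minimum of 20. The part of abundance in the low ribosomal shares was not tested.

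The 18-month hearts were set beside the called genes as well. Over all 1623 measured genes the mutant was the highest of the 4 libraries for 32.1% and the lowest for 18.7%, and the wildtype the highest for 32.9% and the lowest for 18.9%. Of the 170 higher genes, the mutant was the highest of the 4 libraries for 142 (83.5%) and the wildtype the lowest for 67 (39.4%). Of the 159 lower genes, the mutant was the lowest for 97 (61.0%) and the wildtype the highest for 120 (75.5%). The call itself sets the order of mutant and wildtype in these genes. Shares above those over all genes were therefore in part fixed in advance. The same holds for such counts within the lists above. Age, reporters and library cannot be told apart in these counts.

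Differences also lay near the mutated gene. pdgfrb is on chromosome 14, and of the 67 measured genes placed there in the order of another zebrafish assembly, 22 were beyond 1.5-fold (32.8%), 11 in each direction, against 294 of 1492 elsewhere (19.7%). This was the highest share among 25 chromosomes, the next being 28.0% and the lowest 10.0%. Among the 20 measured genes nearest to pdgfrb, 4 were higher and 4 lower. The higher ones were hopx, eif4ebp3l (0.59), dnajc4 (0.77) and trpt1, a tRNA phosphotransferase, with 46.6 CPM in mutant and 13.0 CPM in wildtype cells (1.84, 1.14 to 2.61) and 13.9 and 14.2 CPM at 18 months. The lower ones were tubb4b (-0.75), nipsnap3a (-1.22), trmt112 (-0.73) and hspa9. Of these 8, hopx, trpt1, tubb4b and nipsnap3a had a counting interval wholly beyond 1.5-fold. Other calls were close to the limits. With TMM scaling eif4ebp3l came within 1.5-fold (0.58), and the interval of hspa9 ran from -0.997 to -0.186. trmt112 had 52 UMIs in mutant and 60 in wildtype cells. All shares by chromosome count such calls too. For these 8 and for smtnl1, sparc, pdgfrl and rpl26, also on this chromosome, linkage to the um148 allele and a response to it cannot be told apart, since 1 library of each genotype is at hand.

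The 24 ranked genes were also looked at in the kept barcodes with less myl7. Of the 24, 16 had at least 20 UMIs there over both libraries, and 12 of these had the same sign of the ratio as in cardiomyocytes, 7 of them beyond 1.5-fold. The same shares over all measured genes are not given here, so these counts have no background and are description only. The 4 with the opposite sign were rsrp1, ctsla, si:ch211-270g19.5 and alas1.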

How the data were processed

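The authors deposited whole-number UMI counts from 3' ends for each feature in each barcode. Cell Ranger 4.0.0 made them, per the file headers. The submitters' processing notes name the build GRCz11 and Seurat. Deposited barcodes hold at least 500 UMIs. Of 25110 features, those sharing a symbol were summed (24438 symbols). The rule above gave the cells. No doublet caller was run; 32 mutant and 24 wildtype barcodes with 3 or more UMIs of another type's markers were left out as an alternative. Within a library the cells' UMIs were added up per gene and divided by their grand total (CPM). Ratios have conditional binomial and levels exact Poisson 95% intervals. These describe 2 libraries, without a test. A gene was measured if the 6-month libraries together held 100 UMIs or more of it. Shares of cells were also taken after thinning each cell to 500 UMIs.

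Named genes were the 12 highest and 12 lowest beyond 1.5-fold by the interval's bound nearest to 1, with a UMI in at least 5% of cells (myl7, reporters, mitochondrial, ribosomal protein and haemoglobin genes left out), pdgfrb, EGFP, the 10 genes with most UMIs and the most abundant members of each list. List members named for being beyond 1.5-fold were chosen after their values were seen. The members and lists were chosen with earlier results of these data known. Chromosome and order came from a RefSeq table of GRCz12tu. Scaling factors by edgeR 4.0.16 and DESeq2 1.42.0, other thresholds and other depths were alternatives. Python 3.11.15, numpy 2.4.6, scipy 1.17.1 and R 4.3.3 were used, and the ratio step was tested on simulated data. The result of 1 gene list is not reported here.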

Additional observations from a re-analysis of the deposited data

How the results depend on the processing

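The log2 ratios of the 24 ranked genes stayed beyond 1.5-fold in the same direction under each of 9 alternatives that change the cells or their weight: 2 myl7 thresholds, a 10% mitochondrial limit, thinning, equal weight for cells, cells under or over 2000 UMIs alone, and leaving out mixed barcodes or the 3 richest cells. The 24 were chosen for ratios far from 1 in these same 2 libraries. That they stayed beyond 1.5-fold was therefore likely in advance and is no independent check. The other alternatives, 3 scalings and 2 count minimums, move every gene's ratio alike (by -0.06 with DESeq2 size factors) or not at all. Beyond the values given in the report, moves of over 1.5 times were seen in cells under 2000 UMIs for histh1l (2.702), mibp (-1.99), rsrp1 (1.75), tcima (-4.93) and tuba8l (-2.90), with thinned cells for si:ch211-28p3.4 (2.71), twf2b (2.85) and xirp2a (-1.10), and without the 3 richest cells for si:dkey-188i13.10 (4.58). The numbers of genes beyond 1.5-fold moved with the count minimum and with depth. They were 838 higher and 552 lower of 4212 with at least 20 UMIs, 4001 and 2644 of 11689 with no minimum, 35 and 48 of 577 with cells thinned to 500 UMIs, and 42 and 68 of 632 in cells under 2000 UMIs. These alternatives measure more or fewer genes, and no other cause was tested. Of the genes called, 51.7% were higher in the main counts, and 50.8%, 44.4% and 60.1% with TMM, DESeq2 size factors and a total without mitochondrial, ribosomal protein, haemoglobin genes and myl7. Cardiomyocytes made up 82.8% of kept mutant and 73.9% of kept wildtype barcodes at 1% myl7. At 5% myl7 they made up 75.7% of the mutant ones and were 648 of the 949 wildtype ones. Cardiomyocytes with at most 10% mitochondrial UMIs were 71.7% of mutant and 64.4% of wildtype barcodes kept at the 25% limit. The kept barcodes were not cut to 10% here, so these are not cardiomyocyte shares under a 10% limit. The median of the glycolysis list lay between -0.59 and -0.30 and that of the fuel switch list between 0.13 and 0.30 over 13 alternatives, all but the one without the 3 richest cells. Of the 11 genes of the mitochondrial ribosome called lower, 7 were still beyond 1.5-fold with at most 10% mitochondrial UMIs, and of the 4 of the respiratory chain 1 was with the total that leaves out mitochondrial, ribosomal protein and haemoglobin genes and myl7. No paired analysis was possible because each group has 1 library. Depth limits what could be measured to 1623 of 24438 symbols.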
